A study of Gallus gallus with 34 samples.

Results

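The natriuretic peptide system was followed in the retina, RPE and choroid of chicks whose eye growth was driven in opposite directions by lenses. The genes sought were the receptors NPR3, NPR1 and NPR2 and the ligand NPPC, by symbol or name. Of these 4, 3 were matched among the 13067 genes of the count table: NPR3 (ENSGALG00000017405) and NPR2 (ENSGALG00000027630) by symbol, and CNP3 (ENSGALG00000004572) because the table names it natriuretic peptide C. RefSeq's chicken gene list holds CNP3 and NPPC as separate genes, with NPPC also an older name of CNP3, so the CNP3 values need not stand for the gene now called NPPC. NPR1 was not analysed here. NPR3 was chosen on its measured values, namely its differences between lens groups in these same chicks, so all of its lens and time differences are given as a description without a test. NPR2 and CNP3 came with it as its receptor family and ligand.

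Messenger RNA was sequenced from 34 male Leghorn/New Hampshire chicks in 9 groups. From post-hatch day 5 the right eye carried a -10 diopter lens (Negative Lens, which induces myopia), a 10 diopter lens of plus power (Positive Lens, which induces hyperopia) or nothing (No Lens), and tissue was taken after 1, 2 or 3 days, at post-hatch day 6, 7 or 8. There were 4 chicks per group, or 3 in the No Lens groups at day 1 and day 2, and each chick gave 1 right eye. No Lens eyes came from separate, untreated animals. Only animals whose eyes had responded clearly and alike in refraction and size were sequenced, so the spread within groups may be narrower than in unselected animals. The layers were sequenced together. A lower level can mean fewer cells that make the transcript or less transcript per cell, and these cannot be told apart in such samples.

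Natriuretic peptides are small secreted hormones. NPR1 and NPR2 are membrane guanylate cyclases that make cGMP when a peptide binds, NPR2 being the preferred receptor of C-type natriuretic peptide, the product of NPPC. NPR3 lacks the cyclase domain. It binds all of the peptides, removes them from the tissue by internalization and can couple to inhibitory G proteins. C-type natriuretic peptide is known best for driving the growth of cartilage and bone and for relaxing blood vessels, and cGMP is also the messenger of phototransduction.

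Total counts ranged from 1592763 to 13765634 per chick. Levels are given in CPM, counts scaled to 1000000 per library after TMM normalization, and say nothing of transcript length, so levels of different genes were not compared. Markers of photoreceptors (6 of 6 listed), pigment epithelium (7 of 7) and choroidal endothelium (6 of 7) were present, with ARR3 at 384 CPM or more, RPE65 at 502 CPM or more and KDR at 240 CPM or more in every chick. The skeletal muscle markers ACTA1 and TNNT3 summed to between 6.48 and 1103 CPM in the Positive Lens chicks at day 3, against at most 103 CPM in any chick of the other groups. Fits compared groups by the quasi-likelihood test in edgeR with Benjamini-Hochberg adjustment over all genes tested, and called means an adjusted p below 0.05.

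NPR3, the clearance receptor, was low under Negative Lens and high under Positive Lens on every day. Its level was 8.92 ± 1.97 CPM (SD, n = 12) in the Negative Lens chicks, 17.1 ± 3.69 CPM (SD, n = 10) in the No Lens chicks and 29.8 ± 9.90 CPM (SD, n = 12) in the Positive Lens chicks. The highest Negative Lens chick of any day (11.8 CPM) lay below the lowest Positive Lens chick of any day (19.8 CPM). These values rest on 14 to 376 reads per chick, with a median of 82.0 reads, at which counting alone gives a CV of 11%.

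At day 1 NPR3 measured 14.2, 15.7 and 11.2 CPM in the No Lens chicks. It measured 10.8, 11.8, 9.58 and 8.87 CPM in the Negative Lens chicks and 19.8, 26.9, 22.6 and 42.3 CPM in the Positive Lens chicks. The Negative Lens range thus overlapped that of No Lens, and the Positive Lens chicks were all higher than both. Of 11882 genes, 2.7% were higher in every Positive Lens than in every No Lens chick at day 1, and 0.833% were lower in every Negative Lens than in every Positive Lens chick. These shares are printed as a background only, since the lens contrasts chose the gene. The log2 fold change was -0.42 (SE 0.25) for Negative Lens against No Lens and 1.03 (SE 0.24) for Positive Lens against No Lens. Without Positive Lens chick 4, which had 42.3 CPM, the second value was 0.78.

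At day 2 the No Lens chicks had 13.6, 14.3 and 19.0 CPM of NPR3. The Negative Lens chicks had 7.69, 6.59, 7.72 and 11.4 CPM, and the Positive Lens chicks 21.8, 20.2, 37.4 and 29.5 CPM. The 3 groups were separate, in the order Negative Lens, No Lens, Positive Lens. The share of all genes with this joint order was not computed, only those for pairs of groups. The background of genes without overlap was 4.44% for lower under Negative Lens than No Lens, 1.69% for higher under Positive Lens than No Lens, and 1.32% for lower under Negative than Positive Lens. Against No Lens, the log2 fold change was -0.92 (SE 0.26) with the Negative Lens and 0.81 (SE 0.25) with the Positive Lens.

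At day 3 NPR3 lay close together in the No Lens chicks at 21.0, 20.4, 20.4 and 21.2 CPM. At 101 to 231 reads per chick, this spread (CV 1.89%) was narrower than counting error alone gives, so such closeness need not recur. Negative Lens chicks had 9.78, 9.68, 5.26 and 7.89 CPM, and Positive Lens chicks 51.6, 26.3, 24.3 and 35.4 CPM. The groups were again separate in the same order. The corresponding background shares for pairs of groups were 1.99%, 9.07% and 2.06%, and that for the joint order was again not computed. The log2 fold change against No Lens was -1.32 (SE 0.23) with the Negative Lens and 0.74 (SE 0.21) with the Positive Lens, which became 0.47 when the Positive Lens chick with 51.6 CPM was left out.

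**Figure D1:**
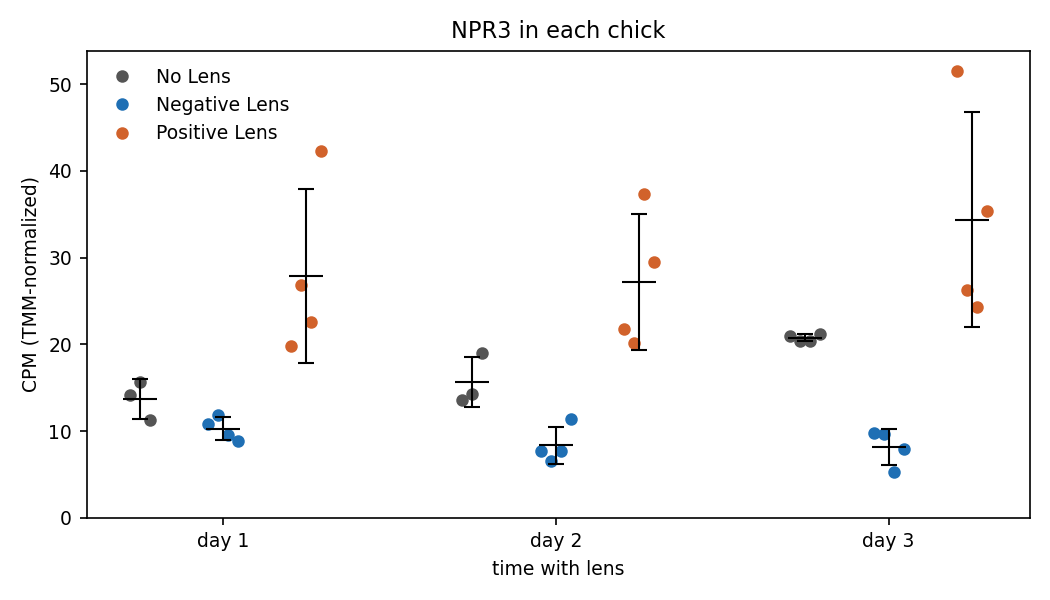
NPR3 level in CPM (vertical axis) in each chick after 1, 2 and 3 days, with points for chicks and black lines for the group mean ± SD. All 12 Negative Lens chicks lie at or below 11.8 CPM and all 12 Positive Lens chicks at or above 19.8 CPM, with No Lens chicks between 11.2 and 21.2 CPM.

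Negative and Positive Lens differed by a log2 fold change of -1.45 (SE 0.23) at day 1, -1.73 (SE 0.24) at day 2 and -2.05 (SE 0.22) at day 3. Averaged over the days it was -0.88 (SE 0.15) for Negative Lens and 0.87 (SE 0.15) for Positive Lens against No Lens. These sizes were close as 3-day means and at day 2 (-0.92 and 0.81). The Negative Lens difference was the smaller at day 1 and the larger at day 3, and the sizes were not tested against each other. The median absolute log2 fold change over all genes in these averaged comparisons was 0.07. Complete separation of the 12 Negative from the 12 Positive Lens chicks over all days was seen for 7 of 11882 genes, 0.0589%, in either direction. The others were seen only after the values were known. They were RGS16 (a regulator of G protein signalling), GCG (proglucagon), VCAN (the matrix proteoglycan versican), HAS2 (a hyaluronan synthase), MASP1 (a complement protease) and PTX3 (a pentraxin). Like NPR3, each had the higher level under the Positive Lens. The gap was narrowest for GCG, from 35.9 CPM in the highest Negative Lens chick to 36.05 CPM in the lowest Positive Lens chick. For RGS16 it ran from 42.81 to 43.19 CPM.

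Over age, mean NPR3 rose in the No Lens chicks, given here without a test. NPR3 in No Lens chicks averaged 13.7 ± 2.28 CPM (SD, n = 3) at day 1, 15.7 ± 2.92 CPM (SD, n = 3) at day 2 and 20.8 ± 0.392 CPM (SD, n = 4) at day 3. Every No Lens chick at day 3 exceeded every No Lens chick at days 1 and 2, as did 1.16% of all genes, though the day 3 spread was narrower than counting error alone gives. The log2 fold change between consecutive days was 0.20 (SE 0.18) and then 0.43 (SE 0.16). In the Negative Lens chicks the means were 10.3, 8.35 and 8.15 CPM, with log2 fold changes of -0.29 (SE 0.22) and -0.02 (SE 0.22). In the Positive Lens chicks they were 27.9, 27.2 and 34.4 CPM, with log2 fold changes of -0.01 (SE 0.29) and 0.33 (SE 0.29). Single chicks moved these small values: the No Lens change from day 1 to day 2 was 0.049 without No Lens chick 3 at day 1, and the Positive Lens change from day 2 to day 3 was 0.065 without Positive Lens chick 1 at day 3. Ranked by mean, the 9 groups ran from Negative Lens at day 3, day 2 and day 1 through No Lens at day 1, day 2 and day 3 to Positive Lens at day 2, day 1 and day 3. All neighbours in this order overlapped in range except No Lens at day 2 and day 3.

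The level of NPR3 varied most under the Positive Lens, where the CV was between 29.0 and 36.1% in the 3 groups, against 12.8 to 25.9% under Negative Lens and 1.89 to 18.7% under No Lens. The 1.89%, in No Lens chicks at day 3, was less than counting error alone gives. Markers of fibroblast stroma varied with NPR3 under the Positive Lens. Over all chicks the relation passed by Pearson's r and not by Spearman's rho after adjustment. For the other marker lists r with NPR3 ran from -0.093 (pigment epithelium) to 0.28 (skeletal muscle), with a permutation adjusted p of 0.602 or more. The stroma list was detected in 4 of 5 members, COL1A2, COL3A1, DCN and LUM, none at 0 in any chick. Over all 34 chicks, after subtracting group means, NPR3 and the summed stroma markers correlated at r = 0.611 (two-sided permutation p = 0.00267, adjusted p = 0.0200 over 30 pairs of a gene with a marker list). Spearman's rho was 0.528 (permutation p = 0.0104, adjusted p = 0.0780), and r was 0.490 without the 2 chicks farthest from the median in NPR3. Within the 12 Positive Lens chicks r was 0.873 (permutation p = 0.00162, adjusted p = 0.00972 over 6 relations) and rho 0.825 (permutation p = 0.00437, adjusted p = 0.0103), with r = 0.807 without the 2 farthest chicks. Within the 12 Negative Lens chicks r was 0.084 (permutation p = 0.789, adjusted p = 0.789) and rho -0.063 (permutation p = 0.864, adjusted p = 0.864). Within the 10 No Lens chicks r was 0.366 (permutation p = 0.400, adjusted p = 0.480) and rho 0.176 (permutation p = 0.736, adjusted p = 0.864). Without the 2 farthest chicks r was -0.018 in the Negative Lens and 0.265 in the No Lens chicks, and the difference between lenses in r was not tested. Only this relation and that of NPR2 with the photoreceptor markers were split by lens. Both had passed by r over these same chicks, so the p-values within lenses are a description and no further support.

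Because the stroma sum itself reached 615 to 1184 CPM in the Positive Lens chicks at day 3, against 458 to 627 CPM in the No Lens chicks of that day, NPR3 was also expressed per 1000 CPM of these markers, a scale chosen after seeing the data. On it all 12 Negative Lens chicks (9.30 to 27.5) lay below all 12 Positive Lens chicks (39.5 to 66.9). The share of all genes that separate groups on this scale was not computed. As the lens differences chose NPR3, its separations on this scale are a description only. The Positive Lens exceeded No Lens without overlap at day 1, at 51.9 ± 9.03 against 21.9 ± 2.41 (SD, n = 4 and n = 3), and at day 2, at 51.8 ± 10.5 against 30.4 ± 5.00 (SD, n = 4 and n = 3). At day 3 it was 42.0 ± 2.98 against 40.8 ± 6.13 (SD, n = 4 each), and the ranges overlapped. The Negative Lens range overlapped that of No Lens at day 1 (13.87 to 27.47 against 19.12 to 23.44). It lay below No Lens without overlap at day 2 (13.45 to 20.06 against 24.77 to 34.31) and at day 3 (9.30 to 17.84 against 32.54 to 46.31). At day 1 the stroma sum was 457 to 688 CPM under the Positive Lens and 587 to 679 CPM under No Lens, at day 2 it was 326 to 737 CPM and 424 to 578 CPM, and in the Negative Lens groups it lay between 393 and 676 CPM on all days. The part of stromal content in the NPR3 differences was not tested beyond these values.

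**Figure D2:**
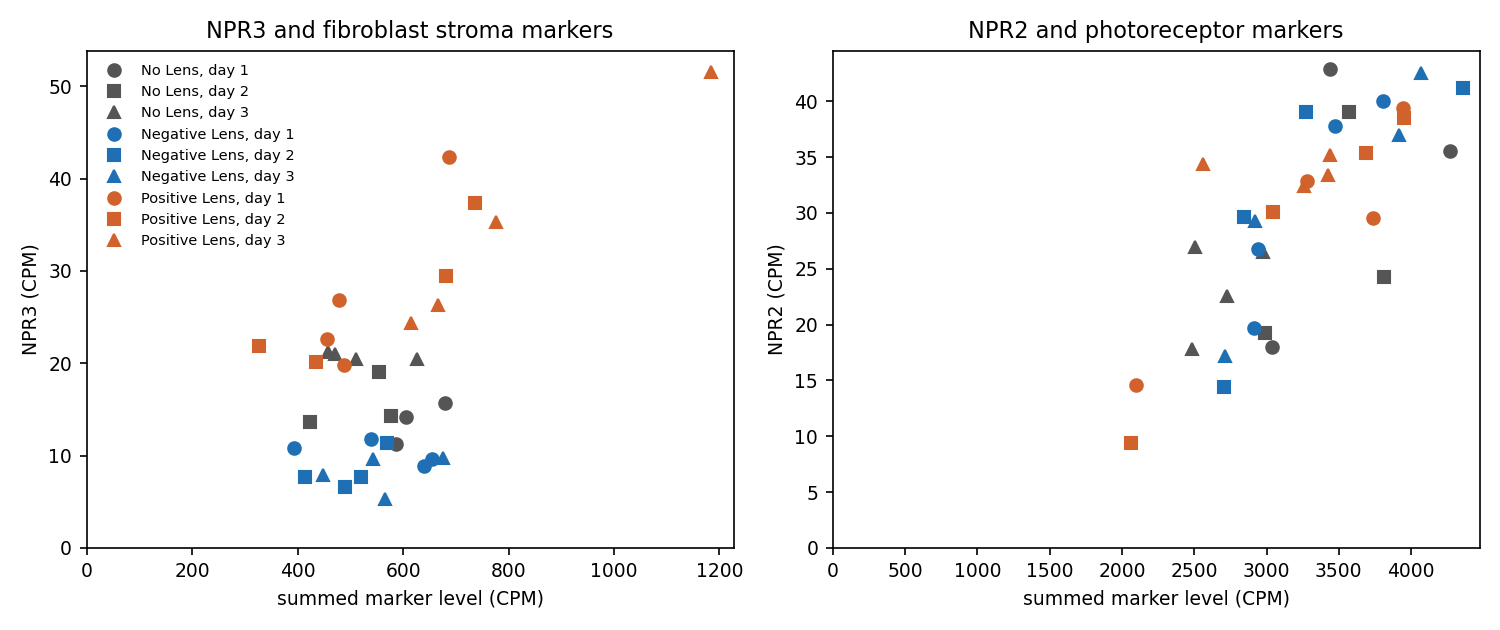
Left, NPR3 level (CPM) against the summed fibroblast stroma markers (CPM), right, NPR2 level (CPM) against the summed photoreceptor markers (CPM), with 1 point per chick, colours for lenses and shapes for days. Positive Lens chicks with more stroma marker RNA had more NPR3, with the highest chick at 1184 and 51.6 CPM, and NPR2 went with the photoreceptor sum over the 34 chicks at r = 0.819 after subtracting group means.

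The genes nearest to NPR3 over the 34 chicks, after subtracting group means, were ATMIN (r = 0.682), VCAN (r = 0.677), PTX3 (r = 0.673), CHTL1A (r = 0.666) and C7, a complement component (r = 0.652). Across the 9 group means they were EP4, a prostaglandin E receptor (r = 0.972), PTX3 (r = 0.955), F13A1, a subunit of coagulation factor XIII (r = 0.951), ENSGALG00000001629 (r = 0.939) and EGFL6, a secreted protein with EGF repeats (r = 0.929). PTX3 was the gene on both lists. Few reads stood behind EP4, EGFL6 and CHTL1A, which averaged 0.809, 1.82 and 1.16 CPM. These correlations share libraries and normalization and are given as a description.

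NPR2, the cyclase receptor for C-type natriuretic peptide, lay between 9.35 and 42.9 CPM and showed no called difference between lenses. The level was 27.3 ± 8.95 CPM (SD, n = 10) under No Lens, 31.2 ± 9.91 CPM (SD, n = 12) under Negative Lens and 30.4 ± 9.17 CPM (SD, n = 12) under Positive Lens. From 36 to 552 reads per chick stood behind these values, with a median of 150 reads and a counting CV of 8.16% there.

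At day 1 NPR2 had 18.0, 35.6 and 42.9 CPM in the No Lens chicks, 19.7, 37.8, 26.8 and 40.0 CPM in the Negative Lens chicks and 32.9, 39.4, 14.6 and 29.5 CPM in the Positive Lens chicks. At day 2 the values were 19.3, 24.3 and 39.0 CPM under No Lens, 14.4, 41.2, 39.0 and 29.6 CPM under Negative Lens and 9.35, 38.5, 30.1 and 35.4 CPM under Positive Lens. On both days each group held low and high chicks and the groups overlapped. At day 3 the No Lens chicks had 26.5, 22.6, 17.8 and 26.9 CPM, the Negative Lens chicks 37.0, 42.6, 29.3 and 17.2 CPM and the Positive Lens chicks 35.2, 32.4, 33.4 and 34.4 CPM. There the Positive Lens chicks were close together and all above the No Lens chicks, as were 9.07% of all genes, while the Negative Lens range spanned both. At 48 to 274 reads per chick, the Positive Lens spread (CV 3.6%) was narrower than counting error alone gives, so such closeness need not recur.

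For Negative Lens against No Lens the log2 fold change of NPR2 was -0.06 (95% interval -0.80 to 0.67, adjusted p = 1.00) at day 1, 0.19 (-0.75 to 1.14, adjusted p = 0.998) at day 2 and 0.40 (-0.06 to 0.85, adjusted p = 0.546) at day 3, in edgeR. Without Negative Lens chick 4 at day 3, which had 17.2 CPM, the last value was 0.62 and passed the threshold (adjusted p = 0.0412), and without Negative Lens chick 2, which had 42.6 CPM, it was 0.19 (adjusted p = 0.963). For Positive Lens against No Lens it was -0.14 (-0.87 to 0.59, adjusted p = 1.00), 0.06 (-0.90 to 1.01, adjusted p = 1.00) and 0.50 (0.05 to 0.96, adjusted p = 0.233) at days 1, 2 and 3 in edgeR. Negative and Positive Lens differed by 0.08 (-0.61 to 0.76), 0.14 (-0.73 to 1.00) and -0.11 (-0.57 to 0.35), with adjusted p between 0.962 and 1.00 in edgeR. At days 1, 2 and 3 the share of all genes called was 0%, 0% and 0% for Negative Lens against No Lens, 0%, 0% and 0.878% for Positive Lens against No Lens, and 0.0262%, 0.0526% and 0.0348% for Negative against Positive Lens. The day 3 share for Positive Lens against No Lens rests on 101 genes, which became 6 when all 34 chicks shared a fit and 654 when only these 2 groups did.

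Averaged over the days NPR2 differed by 0.19 (95% interval -0.25 to 0.63, adjusted p = 0.848 in edgeR) for Negative Lens and 0.15 (-0.30 to 0.59, adjusted p = 0.907 in edgeR) for Positive Lens against No Lens, and by 0.04 (-0.38 to 0.46, adjusted p = 1.00 in edgeR) between the lenses, all on the log2 scale. The share of genes called in these comparisons was 0.177%, 0.0757% and 0.396%. Between consecutive days within a lens group the log2 fold change of NPR2 ran from -0.27 to 0.25, with adjusted p of 0.961 or more in edgeR. The share of genes called from day 1 to day 2 and from day 2 to day 3 was 0% and 0.00873% in No Lens, 0.0264% and 0% in Negative Lens, and 0% and 0% in Positive Lens chicks. Averaged over the lens groups the change was -0.10 from day 1 to day 2, 0.02 from day 2 to day 3 and -0.09 from day 1 to day 3 (adjusted p of 0.980 or more in edgeR), beside 0.0926%, 0.0505% and 0.194% of genes called.

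The variation of NPR2 lay between chicks of the same group. Its SD within groups was 0.58 on the log2 scale, more than that of 86.9% of genes and above the median of 0.22, while that of NPR3 was 0.35. The first principal component of all genes within groups, which held 43.2% of the variance there, correlated with NPR2 at r = 0.959 (permutation p = 1e-05, the smallest the permutations can give, adjusted p = 3e-05 over the 3 genes; rho = 0.90, permutation p = 1e-05, adjusted p = 3e-05; r = 0.935 without the 2 farthest chicks). For NPR3 that correlation was r = 0.195 (permutation p = 0.386, adjusted p = 0.386; rho = 0.184, permutation p = 0.358, adjusted p = 0.358; r = 0.162 without the 2 farthest). The 3 genes were among those that formed the component, and NPR2 varied more than most, so these r and p-values are a description. The sign of the component was set to make its correlation with NPR2 positive. The share of all genes with so high an r to it was not computed. In all, 576 genes followed NPR2 within groups at r above 0.9, and the nearest were PHC2 (r = 0.979), CTDSP1 (r = 0.979), ENSGALG00000026778 (r = 0.972), SPTB (r = 0.970) and TMEM132E (r = 0.969). For the 9 group means the nearest were OGDH (r = 0.992), ATP13A2 (r = 0.988), UBAP2L (r = 0.985), AP1B1 (r = 0.983) and ENSGALG00000023447 (r = 0.981).

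NPR2 also moved with the markers of retina and of scleral cartilage. Within groups it correlated with the summed photoreceptor markers at r = 0.819 (permutation p = 2e-05, adjusted p = 0.0002; rho = 0.766, permutation p = 2e-05, adjusted p = 0.0003; r = 0.773 without the 2 farthest chicks). With the Mueller glia and inner retina markers, 3 of 6 detected, r was 0.856 (permutation p = 2e-05, adjusted p = 0.0002; rho = 0.756, permutation p = 7e-05, adjusted p = 0.0007; r = 0.789 without the 2 farthest). With the scleral cartilage markers, 5 of 6 detected, r was 0.936 (permutation p = 1e-05, adjusted p = 0.0002; rho = 0.895, permutation p = 1e-05, adjusted p = 0.0003; r = 0.902 without the 2 farthest). Most of the cartilage sum was COL2A1, at 16.6 to 113 CPM. ACAN, the defining proteoglycan of cartilage, was at most 3.11 CPM and at 0 in 3 chicks. For the other marker lists r with NPR2 ran from -0.36 (blood) to 0.376 (fibroblast stroma), and none passed. Their permutation adjusted p was 0.286 or more for r and 0.549 or more for rho. The photoreceptor sum ranged from 2062 to 4360 CPM over all chicks, with medians of 2617 CPM under No Lens, 3417 CPM under Negative Lens and 3341 CPM under Positive Lens at day 3, and the cartilage sum was 56.0 to 66.8, 54.6 to 113 and 81.7 to 126 CPM in these groups. Photoreceptor and NPR2 levels went together within the Negative Lens chicks (r = 0.830, permutation p = 0.00645, adjusted p = 0.0144; rho = 0.874, permutation p = 0.00121, adjusted p = 0.00726; r = 0.793 without the 2 farthest) and within the Positive Lens chicks (r = 0.896, permutation p = 0.00721, adjusted p = 0.0144; rho = 0.769, permutation p = 0.00513, adjusted p = 0.0103; r = 0.633 without the 2 farthest). In the 10 No Lens chicks r was 0.581 (permutation p = 0.220, adjusted p = 0.330; rho = 0.612, permutation p = 0.175, adjusted p = 0.263) and fell to 0.134 without the 2 farthest. As for NPR3, the split by lens reuses chicks in which the relation had passed, so its p-values are a description and no further support. The part of the variation shared with these markers in the NPR2 values was not tested. An averaged fit with 1 surrogate variable, added after seeing the data, is given as a description only. That variable was estimated from the same libraries with NPR2 among the genes, so a smaller SE for NPR2 was to be expected. The SE of the NPR2 lens differences went from between 0.21 and 0.22 to 0.07. The log2 fold changes became -0.12, -0.08 and -0.03, all uncalled (adjusted p from 0.711 to 0.971 in edgeR).

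**Figure D3:**
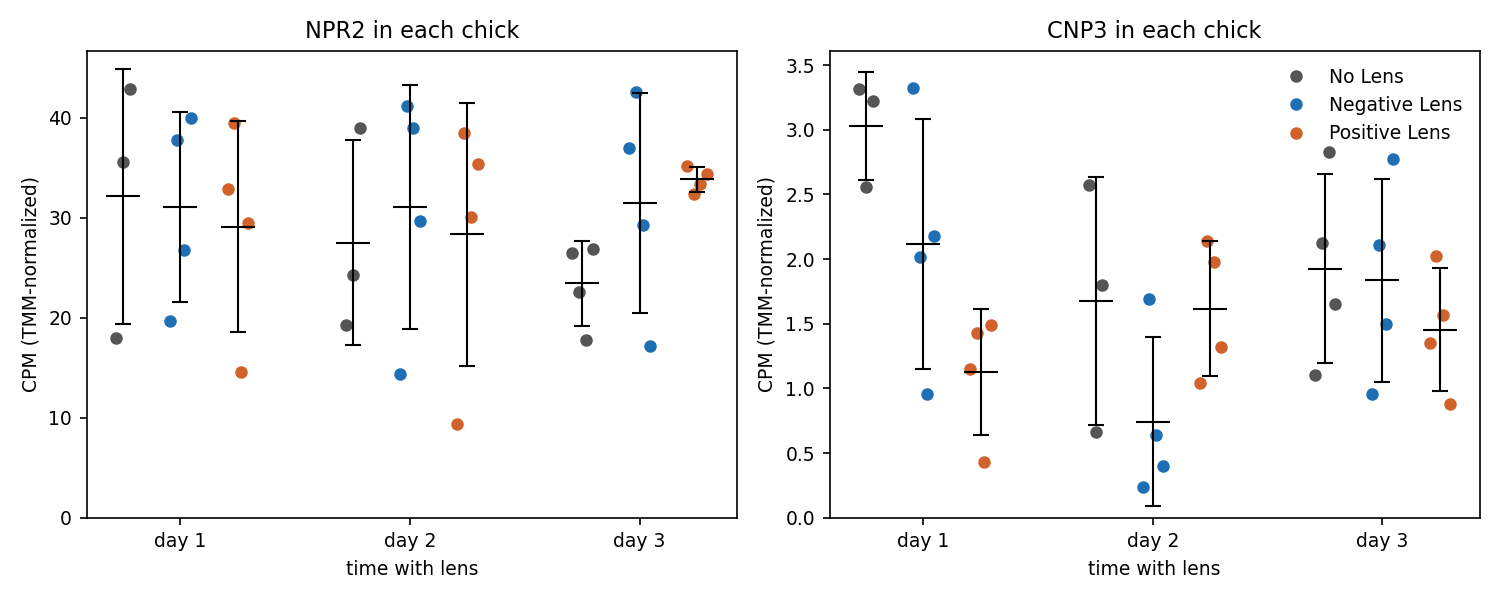
NPR2 (left) and CNP3 (right) level in CPM in each chick after 1, 2 and 3 days, with points for chicks and black lines for the group mean ± SD. NPR2 spreads from 9.35 to 42.9 CPM with overlapping groups except at day 3, where Positive Lens lies above No Lens, and CNP3 stays at or below 3.32 CPM.

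CNP3, the C-type peptide gene matched here, was scarce. It was counted at 1 to 33 reads per chick, with a median of 7.5 reads, and 20 of 34 chicks had fewer than 10. Levels ran from 0.240 to 3.32 CPM, with 2.18 ± 0.880 CPM (SD, n = 10) under No Lens, 1.57 ± 0.960 CPM (SD, n = 12) under Negative Lens and 1.40 ± 0.496 CPM (SD, n = 12) under Positive Lens. It passed the filter on low counts in the fits of day 1, day 3, No Lens and all 34 chicks, and not in those of day 2, Negative Lens or Positive Lens. At day 1 it passed only through the No Lens chicks, where it was highest, so the filter itself favoured high No Lens values in that fit. The day 1 differences of CNP3 from No Lens are therefore a description, and their intervals and p-values are no support for them. How reads were shared with related C-type peptide genes was not examined.

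The clearest spread of CNP3 was at day 1. The No Lens chicks had 3.31, 2.55 and 3.22 CPM, the Negative Lens chicks 3.32, 2.02, 0.958 and 2.18 CPM and the Positive Lens chicks 1.15, 1.43, 0.434 and 1.49 CPM. All Positive Lens chicks were below all No Lens chicks, as were 2.68% of all genes, and the Negative Lens chicks spanned both. The log2 fold change was -1.37 (SE 0.43, 95% interval -2.30 to -0.44, adjusted p = 1.00 in edgeR) for Positive Lens and -0.50 (SE 0.40, adjusted p = 1.00 in edgeR) for Negative Lens against No Lens, and 0.87 (SE 0.42, adjusted p = 1.00 in edgeR) between the lenses.

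At day 2 CNP3 measured 2.57, 0.665 and 1.80 CPM under No Lens, 0.240, 1.69, 0.643 and 0.401 CPM under Negative Lens and 1.04, 2.14, 1.97 and 1.32 CPM under Positive Lens. At day 3 it measured 1.10, 2.12, 2.83 and 1.65 CPM, 0.954, 2.11, 1.5 and 2.77 CPM, and 1.35, 2.02, 1.57 and 0.877 CPM in the same order. The groups overlapped on both days. At day 3 the log2 fold change was 0.06 (SE 0.38, adjusted p = 0.982 in edgeR) for Negative Lens and -0.54 (SE 0.42, adjusted p = 0.565 in edgeR) for Positive Lens against No Lens.

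Averaged over the days, CNP3 differed from No Lens by -0.51 (95% interval -1.04 to 0.03, adjusted p = 0.686 in edgeR) under Negative Lens and by -0.69 (-1.25 to -0.13, adjusted p = 0.710 in edgeR) under Positive Lens, and between the lenses by 0.19 (-0.37 to 0.74, adjusted p = 1.00 in edgeR). Both differences from No Lens include the day 1 gap described above, so their intervals are a description too. Within the No Lens chicks CNP3 changed by -0.67 (SE 0.44, adjusted p = 0.949 in edgeR) from day 1 to day 2 and by 0.01 (SE 0.47, adjusted p = 1.00 in edgeR) from day 2 to day 3. The genes nearest to CNP3 within groups were STAMBP (r = 0.680), RRP7A (r = 0.657), EARS2 (r = 0.648), UCK2 (r = 0.629) and UBE2T (r = 0.613), and across the 9 group means ARHGAP15 (r = 0.972), LIPA (r = 0.941), GDF10 (r = 0.938), ACTR1A (r = 0.911) and FGF13 (r = 0.895).

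**Figure D4:**
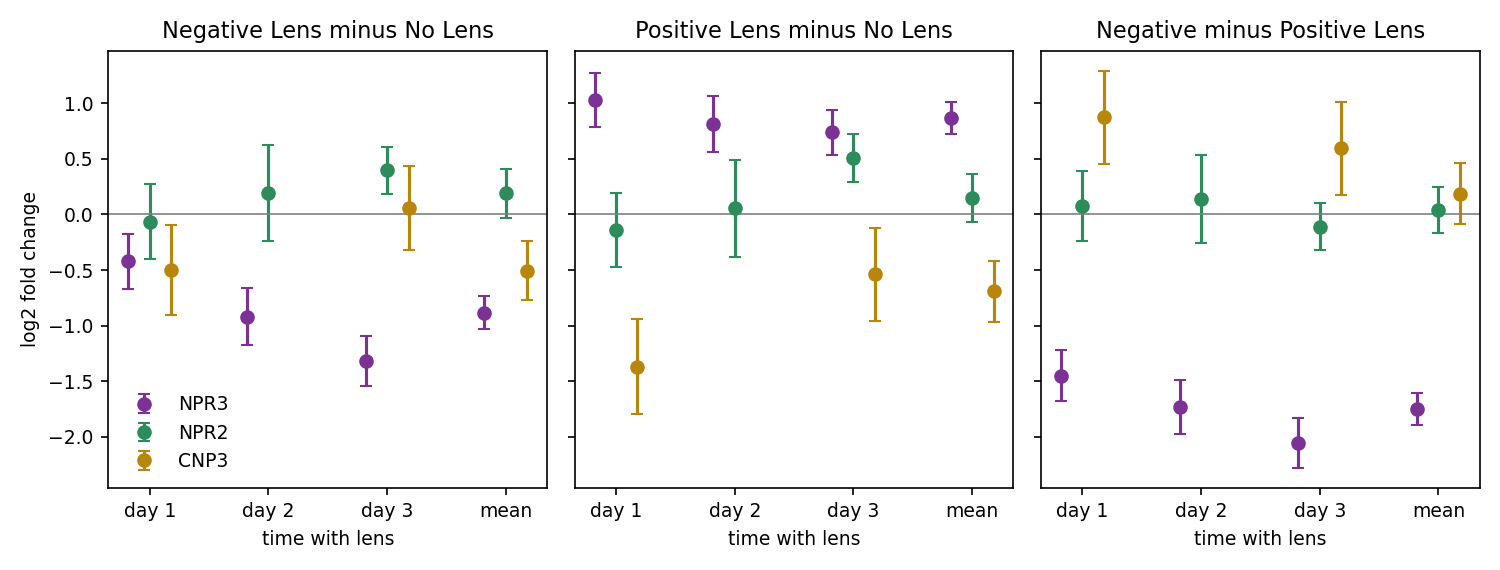
Log2 fold change of NPR3, NPR2 and CNP3 (vertical axis, bars ± SE) for Negative Lens and Positive Lens against No Lens and for Negative against Positive Lens, on each day and as the mean of the 3 days. NPR3 lies on opposite sides of 0 under the lenses at every time, while NPR2 lies between -0.14 and 0.50, and CNP3 is not drawn at day 2, where it did not pass the filter on low counts.

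No pair of the receptors and the ligand passed a test of correlation from chick to chick. After subtracting group means, NPR3 and NPR2 correlated at r = 0.170 (permutation p = 0.436, adjusted p = 0.654 over 3 pairs; rho = 0.186, permutation p = 0.359, adjusted p = 0.539; r = 0.175 without the 2 farthest chicks). NPR3 and CNP3 gave r = -0.037 (permutation p = 0.848, adjusted p = 0.848; rho = -0.049, permutation p = 0.808, adjusted p = 0.808; r = -0.106 without the 2 farthest). NPR2 and CNP3 gave r = 0.225 (permutation p = 0.268, adjusted p = 0.654; rho = 0.194, permutation p = 0.344, adjusted p = 0.539; r = 0.061 without the 2 farthest). At 7.5 reads in the median chick, counting error alone gives CNP3 a CV of 36.5%, which limits what its correlations can show.

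No change of the lens difference with time was called for NPR2 or CNP3, nor for any other gene (0% of 11882 in each of these comparisons). Of the tests that set a lens difference on one day against the same on another, the smallest p was 0.0137, for CNP3 between the lenses at day 2 less day 1 (log2 difference -1.74, SE 0.66, adjusted p = 1.00 in edgeR). For NPR2 the largest such difference was 0.67 (SE 0.52, adjusted p = 0.709 in edgeR), for Positive Lens against No Lens at day 3 less day 1.

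Around these genes, a list of 44 further genes of peptide processing and cGMP signalling held 34 that were in the table and 31 that were tested in each comparison. None of its other ligand genes was tested, as only OSTN was in the table, at 0 to 6 reads per chick. CORIN, the cell surface protease that activates atrial natriuretic peptide, was higher under Negative than Positive Lens, the opposite order to NPR3. It measured 7.28 ± 2.36 CPM (SD, n = 12) under Negative Lens, 5.44 ± 1.01 CPM (SD, n = 10) under No Lens and 4.18 ± 1.10 CPM (SD, n = 12) under Positive Lens. Its log2 fold change between the lenses averaged over the days was 0.78 (SE 0.15, adjusted p = 0.00542 in edgeR), and it was the 1 gene of 31 called in a comparison in which 0.396% of all genes were called.

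CORIN measured 5.81, 5.48, 5.98 and 7.05 CPM in the Negative Lens chicks at day 1, 11.3, 7.92, 12.2 and 6.61 CPM at day 2, and 7.16, 7.20, 3.76 and 6.83 CPM at day 3. It measured 4.14, 4.43, 4.78 and 1.79 CPM in the Positive Lens chicks at day 1, 4.94, 3.97, 3.64 and 6.42 CPM at day 2, and 3.20, 4.72, 4.12 and 4.01 CPM at day 3. The lens groups did not overlap at day 1, where 1.12% of genes were higher in every Negative than every Positive Lens chick, nor at day 2, where 0.682% were, and overlapped at day 3. The No Lens chicks had 7.33, 5.89 and 5.66 CPM at day 1, 6.03, 4.66 and 4.88 CPM at day 2 and 3.49, 5.98, 5.25 and 5.24 CPM at day 3. Against No Lens the averaged log2 fold change was 0.39 (SE 0.15, adjusted p = 0.566 in edgeR) with the Negative Lens and -0.39 (SE 0.15, adjusted p = 0.710 in edgeR) with the Positive Lens, neither called. No single day reached the threshold between the lenses, with log2 fold changes of 0.64, 0.98 and 0.72 and adjusted p from 0.580 to 1.00 in edgeR. From 6 to 89 reads per chick stood behind CORIN. Its correlation with NPR3 within groups did not pass the test (r = -0.286, permutation p = 0.219; rho = -0.144, permutation p = 0.491; r = -0.028 without the 2 farthest chicks).

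**Figure D5:**
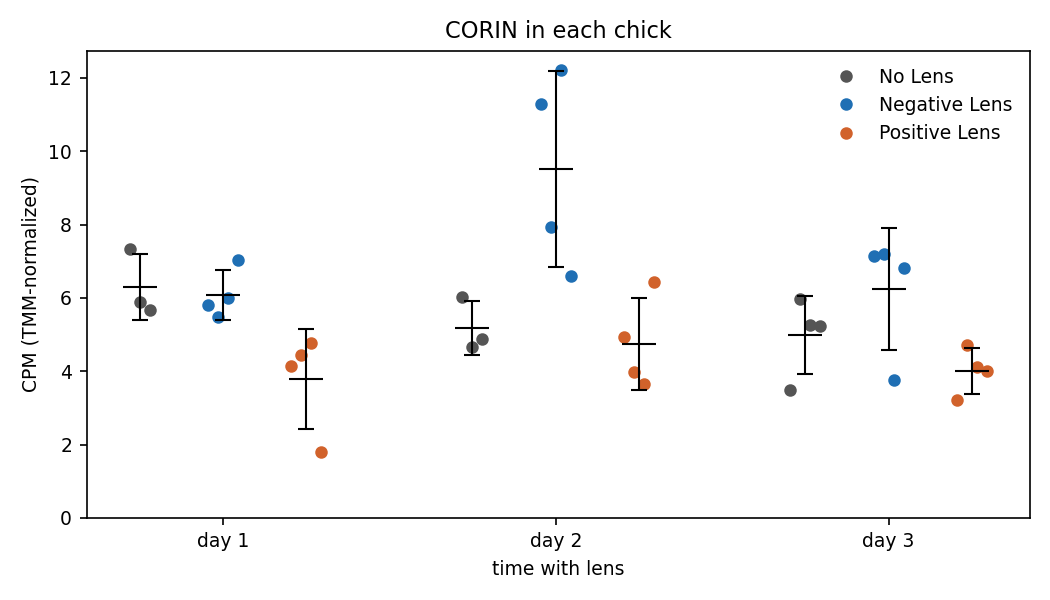
CORIN level in CPM (vertical axis) in each chick after 1, 2 and 3 days, with points for chicks and black lines for the group mean ± SD. Negative Lens chicks lie above Positive Lens chicks at day 1 and day 2, with the highest at 12.2 CPM at day 2, and the lenses overlap at day 3.

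FURIN, a proprotein convertase that cleaves natriuretic peptide precursors, and GNAI2, an inhibitory G protein subunit, were called higher under Positive Lens than No Lens at day 3, where 0.878% of all genes were called, 94 of 101 of them higher. FURIN was at 29.4 ± 4.52 CPM (SD, n = 4) against 16.2 ± 1.95 CPM (SD, n = 4), a log2 fold change of 0.87 (SE 0.18, adjusted p = 0.0445 in edgeR). GNAI2 was at 63.9 ± 6.94 CPM (SD, n = 4) against 39.1 ± 6.54 CPM (SD, n = 4), a log2 fold change of 0.67 (SE 0.14, adjusted p = 0.0447 in edgeR). The call was lost for FURIN without any 1 chick but Positive Lens chick 2 (adjusted p from 0.0458 to 0.148) and for GNAI2 without any 1 chick (0.0515 to 0.148), and for both when all 34 chicks shared 1 fit (adjusted p = 0.428 and 0.334). Both followed NPR2 within groups, at r = 0.938 for FURIN and r = 0.845 for GNAI2 over 34 chicks. So did many genes outside the list, with 576 genes of 11882 above r = 0.9 to NPR2. The share of all genes at or above 0.845 was not computed.

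Of the 31 tested genes of the list, none was called in edgeR for Negative Lens against No Lens on any day. Nor did DESeq2 call any there. Depending on comparison and prior, DESeq2 gave an adjusted p to between 16 and 34 list genes, and it could not call the rest. For Negative Lens against No Lens, 0, 2 and 9 of the 31 had an unadjusted p below 0.05 in edgeR at days 1, 2 and 3, beside 3.18%, 4.98% and 10.3% of all genes. For Positive Lens against No Lens none was called at day 1 or day 2 by either tool, and FURIN and GNAI2 were the 2 called at day 3 in edgeR. At the unadjusted level there were 4, 0 and 11, beside 3.87%, 2.51% and 17.6% of all genes. PDE3A, a cGMP-inhibited phosphodiesterase, had a log2 fold change of -0.38 at day 3 (SE 0.10, adjusted p = 0.0612 in edgeR) and was called by DESeq2 and by edgeR with only the compared groups in the fit. The median log2 fold change of the list averaged over days was -0.01 for Negative Lens and -0.02 for Positive Lens against No Lens, beside 0.01 and 0.01 over all genes. At day 3 it was -0.15 and -0.14, beside 0.00 and -0.01. Between Negative and Positive Lens none was called on a single day by either tool, with 2, 4 and 3 at an unadjusted p below 0.05 in edgeR beside 3.8%, 2.78% and 6.58% of all genes. In the averaged comparisons against No Lens none was called by either tool, with 7 for Negative Lens and 4 for Positive Lens at that level beside 7.55% and 6.05% of all genes. Between consecutive days none of the 31 was called in any lens group by either tool, with 0 to 5 at an unadjusted p below 0.05 in edgeR, beside 1.42 to 5.57% of all genes.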

How the data were processed

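The authors trimmed single-end reads of a stranded mRNA library with CutAdapt and Trimmomatic, aligned them by TopHat2 and Bowtie2 to galGal4, a chicken genome build, and deposited raw counts of uniquely mapping reads per gene made with HTSeq. Whether HTSeq used strand is not given in the sources used here, so reads of overlapping genes may be misassigned. Lens differences of each day were fitted with all chicks of that day, changes over time with all chicks of 1 lens group, and averaged and time-by-lens differences with all 34 chicks, each with a mean per group and no covariate. Low genes were removed with filterByExpr (at its minimum count of 10 and total of 15), and the rest were compared with edgeR 4.0.16 in R 4.3.3 (TMM, glmQLFit, glmQLFTest). Benjamini-Hochberg adjustment ran over the 11368 to 11882 genes tested in a fit. Correlations used log2 CPM (prior count 2) minus group means, with 100000 permutations of chicks within groups. They were split by lens only for 2 relations that had passed by r over all chicks. The script was tested on simulated counts.

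The genes, the pathway list, the marker lists and the tests were chosen with earlier results of these data known. The pathway list covered other ligands (none of them tested), processing enzymes, soluble guanylate cyclases and nitric oxide synthases, cGMP-dependent kinases and targets, phosphodiesterases outside the photoreceptor, and Gi proteins with adenylyl cyclases. From it, genes called in a comparison were named, and the 5 genes most like each member by Pearson's r. PDE3A and the genes that separate the lenses on all days fall outside this rule and were named after their values were seen. Alternatives were DESeq2 1.42.0 with and without its beta prior, RLE size factors, no filter, all 34 chicks or only the compared groups in a fit, each chick left out in turn and, added after seeing the data, 1 surrogate variable from sva 3.50.0 and NPR3 per stroma marker. Each sample was a separate chick, so the tests weighed group differences against the spread between chicks, here chicks selected for clear and similar responses. One column of the count table carries a suffix to its chick label and was matched to that label. No sequences are shown, and no gene lengths were used.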

Additional observations from a re-analysis of the deposited data

How the results depend on the processing

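The lens differences of NPR3 kept their sign in every alternative and leave-one-out fit, while its changes near 0 between days (day 1 to day 2 under Positive Lens and averaged, day 2 to day 3 under Negative Lens) did not. Its values shrank under DESeq2 with its beta prior, which pulls fold changes to 0 by construction, to 0.49 (day 1) and 0.44 (day 2) for Positive Lens against No Lens, -0.40 (day 2) and -0.78 (day 3) for Negative Lens against No Lens, -0.68, -0.84 and -1.26 (days 1 to 3) between the lenses, and -0.45, 0.48 and -0.93 averaged. NPR2 differences near 0 changed sign. With 1 surrogate variable the averaged values were -0.12, -0.085 and -0.033, and from day 2 to day 3 under Negative Lens DESeq2 gave 0.00135 with and 0.0043 without the prior. CNP3 from day 2 to day 3 in No Lens was -0.0016 with the prior. In 1 fit of all 34 chicks FURIN was 0.88 and GNAI2 0.69, uncalled. CORIN stayed called in its 5 alternatives and in 24 of 24 leave-one-out fits.

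Leaving out 1 chick in turn, NPR2 ranged from -0.33 to 0.21 and -0.022 to 0.52 for Negative Lens against No Lens at days 1 and 2, from -0.41 to 0.13 and -0.16 to 0.38 for Positive Lens, and from -0.14 to 0.29, -0.13 to 0.36 and -0.31 to 0.12 between the lenses at days 1, 2 and 3, with -0.045 to 0.12 averaged. From day 1 to day 2 it ranged from -0.60 to 0.00056 (No Lens), -0.17 to 0.24 (Negative Lens) and -0.27 to 0.22 (Positive Lens), and from day 2 to day 3 from -0.42 to 0.13, -0.24 to 0.19 and -0.028 to 0.41. Averaged over lens groups it ranged from -0.074 to 0.12 from day 2 to day 3 and from -0.17 to 0.0053 from day 1 to day 3. CNP3 ranged from -0.25 to 0.27 for Negative Lens against No Lens at day 3, from -0.13 to 0.27 between the lenses averaged, and from -0.27 to 0.57 from day 2 to day 3 in No Lens. CNP3 also moved by over 1.5 times without a change of sign for Negative Lens against No Lens at day 1 (-0.77 to -0.29) and averaged (-0.84 to -0.34), for Positive Lens at day 3 (-0.72 to -0.31), between the lenses at day 3 (0.30 to 0.77) and from day 1 to day 2 in No Lens (-1.25 to -0.40), as did NPR2 for Negative Lens at day 3 (0.19 to 0.62) and averaged (0.09 to 0.29) and for Positive Lens averaged (0.05 to 0.24). FURIN ranged from 0.78 to 0.92 and GNAI2 from 0.56 to 0.73.

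Counts over all genes depended on the fit. For Positive Lens against No Lens at day 3, 101 genes were called in edgeR, 532 and 533 in DESeq2 with and without the prior, 6 in 1 fit of all chicks and 654 with only the compared groups. Averaged over days, 47 genes between the lenses became 132, 83 and, with a surrogate variable, 89, the 21 for Negative Lens became 38 and 36 and the 9 for Positive Lens 43 and 17 in DESeq2 with and without the prior. The other single-day lens comparisons had 0 to 6 as reported and up to 63 in an alternative (edgeR with all 34 chicks), and the day comparisons 0 to 23 and up to 103 (DESeq2 with the prior). The cause was not tested. No paired analysis was possible because the replicate numbers only name chicks. Depth limits CNP3 most, at a median of 7.5 reads.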
